A study of Mus musculus with 8 samples.

Results

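The genes described here encode the proteins of 2 ribosomes: the cytosolic ribosome, which translates nuclear messages, and the mitochondrial ribosome, which translates the few messages of the mitochondrial genome. Members were the non-control probes whose gene name in the files starts with Rpl or Rps and a number, including the stalk genes Rplp0, Rplp1 and Rplp2, or is Rpsa, without the S6 kinases (cytosolic), or starts with Mrpl or Mrps and a number (mitochondrial). They came to 159 of 27827 gene names on the array, measured by 268 of 41174 probes: 84 cytosolic genes with 144 probes and 75 mitochondrial genes with 124 probes. The names alone decided membership, by a rule set with earlier results of these data known. Of these genes, 3 do not encode proteins of the ribosome they are listed under. Rpl7l1 and Rps19bp1 belong to ribosome assembly, and the protein of Mrps36 is now known as a subunit of the mitochondrial 2-oxoglutarate dehydrogenase complex.

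The arrays carried RNA of E10.5 mouse embryo hearts, all from the minKGFP transgenic line, a bacterial artificial chromosome line in which green fluorescent protein reports minK (Kcne1), a potassium channel subunit. Hearts were digested to single cells and sorted by fluorescence into 4 samples of bright cells, labelled conduction system cells (GFP-high), and 4 of dim cells, labelled chamber myocardium (GFP-low). The labels do not say whether hearts were pooled, or whether samples with the same number came from the same litter. Amplification started from 5 ng of RNA per sample, and a single dye marked 2 ug of amplified material. Values below are log2 intensities relative to the 75th percentile of their own array unless another scale is named, and a difference is GFP-high minus GFP-low.

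Each array held 43379 non-control spots, of which 36.3% to 50.7% were well above background. A gene was tested where its probe was well above background on 4 or more arrays, which left 12888 genes. Kcne1 was measured at 1.67 ± 0.57 in GFP-high samples and 0.37 ± 0.39 in GFP-low samples (SD, n = 4 each). Its difference did not pass the adjusted threshold (limma adjusted p = 0.201). All 16 cardiomyocyte markers listed were measured, and their summed level was 3735 to 5830 times the array's 75th percentile in GFP-high and 2629 to 4431 times in GFP-low. That of the 11 atrioventricular canal and pacemaker markers tested was 56.2 to 74.8 in GFP-high and 33.4 to 47.5 in GFP-low. These markers include Kcne1, whose reporter was used for the sort. Of the 11, 9 had higher values in GFP-high and 2 had lower ones, and Shox2, also listed, was above background on no array. The summed level of the 10 chamber markers overlapped, at 899 to 1111 in GFP-high and 777 to 1116 in GFP-low. Gene by gene, 6 of these 10 had lower values in GFP-high and 4 had higher ones, with a median difference of -0.48. At an unadjusted limma p under 0.05, 4 were lower and 0 were higher, and 0 passed the adjusted threshold. The 12 endothelial markers were near the limit of detection, with 4 tested and Pecam1, Tek and Eng above background on no array. Red cell markers varied widely within both groups (26.1 to 199.9 in GFP-high, 13.3 to 190.6 in GFP-low), and the summed level of the 2 leukocyte markers tested of 10 was 10.6 to 15.2 in GFP-high and 3.44 to 5.43 in GFP-low, with Ptprc, Csf1r, Spi1 and Mrc1 above background on no array. Their part in the results below was not tested. In sorted bulk samples, fewer cells of a type and less RNA per cell cannot be told apart.

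A cytosolic ribosome has a small subunit, which reads the message, and a large subunit, which joins the amino acids. Its proteins are made in near-equal numbers, and their messages are among the most abundant in growing cells. Many of these messages begin with a C followed by a run of pyrimidines, the 5′ terminal oligopyrimidine tract through which mTOR signalling controls their translation. The mitochondrial ribosome is built from imported proteins. It makes core subunits of the respiratory chain, on which heart muscle comes to depend heavily, and in humans variants of MRPL3, MRPL44 and MRPS22 are known from cardiomyopathies of early life.

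The start regions of 8 members are shown, 6 of them with a pyrimidine tract at the annotated start or an ETS core. Rpl22l1 and Mrpl50 have neither in the 80 bases shown. Mrpl50 holds an ETS core outside these bases, within the 300 searched below. In Rpl22l1 a C followed by pyrimidines lies a few bases after the annotated start. RefSeq start sites of assembly GRCm38.p6 were used, and 63 cytosolic and 66 mitochondrial members matched a promoter. Each sequence runs 5′ to 3′ over 80 bases, of which the last 20 begin at the annotated first base of the transcript. Capitals mark a pyrimidine tract at the start or the core CCGGAA of sites bound by ETS factors such as GABP, on either strand (TTCCGG). Rps6 and Rps27 are shown for their tracts. Rps27l and Rpl22l1 are paralogues whose difference was below 0, and the others are mitochondrial members named below.
Rps6: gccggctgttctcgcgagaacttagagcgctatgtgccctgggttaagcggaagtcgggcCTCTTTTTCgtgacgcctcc
Rps27: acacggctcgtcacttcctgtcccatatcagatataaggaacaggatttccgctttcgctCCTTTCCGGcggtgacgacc
Rps27l: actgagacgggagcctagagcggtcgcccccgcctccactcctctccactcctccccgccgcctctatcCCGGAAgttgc
Rpl22l1: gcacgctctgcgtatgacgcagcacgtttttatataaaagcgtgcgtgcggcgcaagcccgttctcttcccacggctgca
Mrpl50: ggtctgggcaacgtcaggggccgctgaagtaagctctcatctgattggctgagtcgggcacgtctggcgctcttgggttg
Mrps22: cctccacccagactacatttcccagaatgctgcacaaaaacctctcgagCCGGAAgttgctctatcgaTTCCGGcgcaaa
Mrps31: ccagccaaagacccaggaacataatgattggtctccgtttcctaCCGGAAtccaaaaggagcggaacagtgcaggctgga
Mrps12: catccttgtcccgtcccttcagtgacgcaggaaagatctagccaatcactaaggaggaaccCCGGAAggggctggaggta
They lie at chr4:86857348-86857427 (Rps6, minus strand), chr3:90213629-90213708 (Rps27, minus), chr9:66946026-66946105 (Rps27l, plus), chr3:28805448-28805527 (Rpl22l1, plus), chr4:49521064-49521143 (Mrpl50, minus), chr9:98601660-98601739 (Mrps22, minus), chr8:22411280-22411359 (Mrps31, plus) and chr7:28741802-28741881 (Mrps12, minus). In Rps27 the tract and the core overlap, and Mrps22 holds the core on both strands.

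A C at the annotated start followed by at least 4 pyrimidines was present in 13 of 63 cytosolic promoters (20.6%), in 0 of 66 mitochondrial ones and in 3.01% of all 27025 promoters. When the start was allowed to lie up to 5 bases away, the shares were 46.0%, 24.2% and 21.2%. The core CCGGAA, searched on both strands over 300 bases (250 before the start), was found in 54.0% of cytosolic, 57.6% of mitochondrial and 16.7% of all promoters. The core AAGATGGCG of sites bound by YY1, on either strand, was found in 6.35%, 10.6% and 1.64%. These are matches of letters, and whether a factor binds there was not measured.

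Nearly every member was measured above background in both groups. Of 84 cytosolic genes 82 were tested and of 75 mitochondrial genes all 75 were, and the probe that stood for each was above background on all 8 arrays. Rpl39l, a paralogue of Rpl39 known from the germ line, was above background on 0 arrays with both of its probes. Rpl3l, the paralogue of Rpl3 that striated muscle uses later in life, was above background on 2 GFP-low arrays and 0 GFP-high arrays, while Rpl3 itself read 7.66 ± 0.29 and 7.55 ± 0.26 (SD, n = 4 each).

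No ribosomal protein gene passed the test between the groups. By limma with Benjamini-Hochberg adjustment over 12888 genes, 0 of 82 cytosolic and 0 of 75 mitochondrial genes had an adjusted p under 0.05, against 0.140% of all genes tested (9 higher and 9 lower in GFP-high). The lowest adjusted p was 0.365 among cytosolic and 0.200 among mitochondrial members. At an unadjusted p under 0.05, 0 of 82 cytosolic and 3 of 75 mitochondrial genes (4.0%) passed, against 14.3% of all genes tested. On simulated arrays the fit called 1.6% of genes given a log2 change of 1 and 39% of those given a change of 2. It called 0% of 40 ribosomal members given a change of 1. Only those members were changed in these runs and noise was drawn independently for each gene, so rates on the real arrays may differ. Under these settings most differences of the sizes below would not be called with 4 arrays per group.

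Member differences spread less in the cytosolic than in the mitochondrial ribosome. Of the cytosolic differences, 77 of 82 were above 0 (93.9%); the median was 0.27, the middle 50% of genes ran from 0.15 to 0.34 and the SD over genes was 0.18. Mitochondrial differences had 49 of 75 above 0 (65.3%), a median of 0.15 and an SD over genes of 0.38. Over all tested genes 62.1% were above 0, the median was 0.16 and the SD was 0.82. Differences beyond 0.5 in either direction were seen in 6 cytosolic genes (7.32%), 7 mitochondrial genes (9.33%) and 43.5% of all genes. The median standard error was 0.26 for cytosolic, 0.27 for mitochondrial and 0.39 for all genes. The sets with the smaller SD over genes were also the brighter ones. Array medians were 6.71 to 7.51 for cytosolic, 3.01 to 3.53 for mitochondrial and 0.64 to 0.71 for all tested genes. The part of brightness in the spread was not tested. The cytosolic median was 0.24 over 49 large subunit genes (45 above 0) and 0.30 over 33 small subunit genes (32 above 0). The mitochondrial medians were 0.16 over 46 large and 0.10 over 29 small subunit genes.

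**Figure D1:**
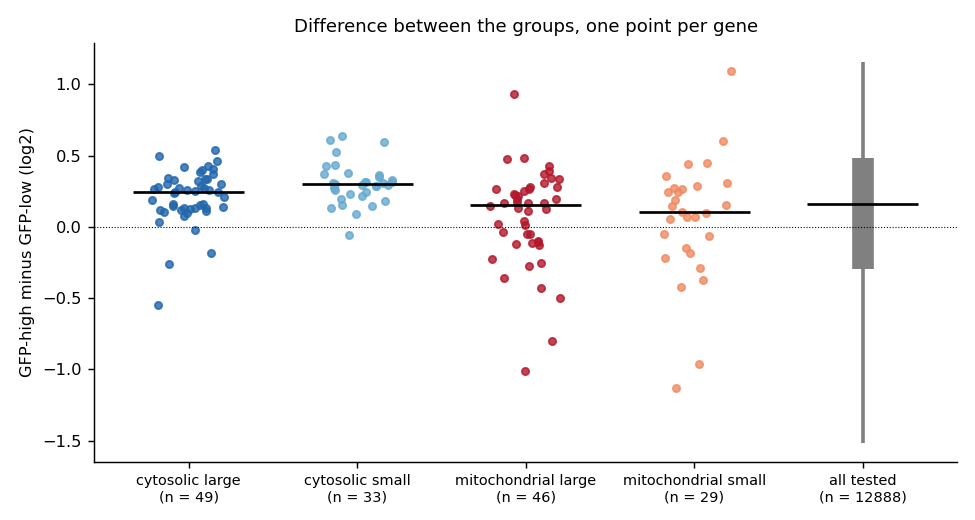
GFP-high minus GFP-low on the log2 scale for each tested member by ribosome and subunit (points, spread sideways at random; lines, medians), beside all 12888 tested genes (thick bar, middle 50%; thin bar, 5th to 95th percentile). Cytosolic points crowd between 0 and 0.5, and the mitochondrial points reach from -1.13 to 1.09.

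With the scaling used, the cytosolic genes moved together from array to array, within both groups. In GFP-high their median was 7.38, 7.51, 6.96 and 7.24 in replicates 1 to 4, and in GFP-low 6.83, 7.33, 6.71 and 7.19. The groups overlapped, since GFP-low replicates 2 and 4 lay above GFP-high replicate 3. Counted gene by gene, 79, 81, 9 and 62 of the 82 genes stood above their own mean over 8 arrays in GFP-high replicates 1 to 4, and 4, 71, 2 and 57 did so in GFP-low. On the scaled values most cytosolic genes were thus above their mean on the same 5 arrays and below it on the other 3, and replicate 3 was low in both groups. As deposited, without scaling, the counts were 70, 68, 43 and 34 in GFP-high and 41, 38, 28 and 38 in GFP-low, so the common movement was smaller and GFP-high replicate 3 was no longer low. The mitochondrial medians were 3.49, 3.44, 3.14 and 3.15 in GFP-high and 3.36, 3.53, 3.01 and 3.36 in GFP-low, with 53, 53, 26 and 34 of 75 genes above their own mean in the first group and 33, 46, 18 and 48 in the second.

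**Figure D2:**
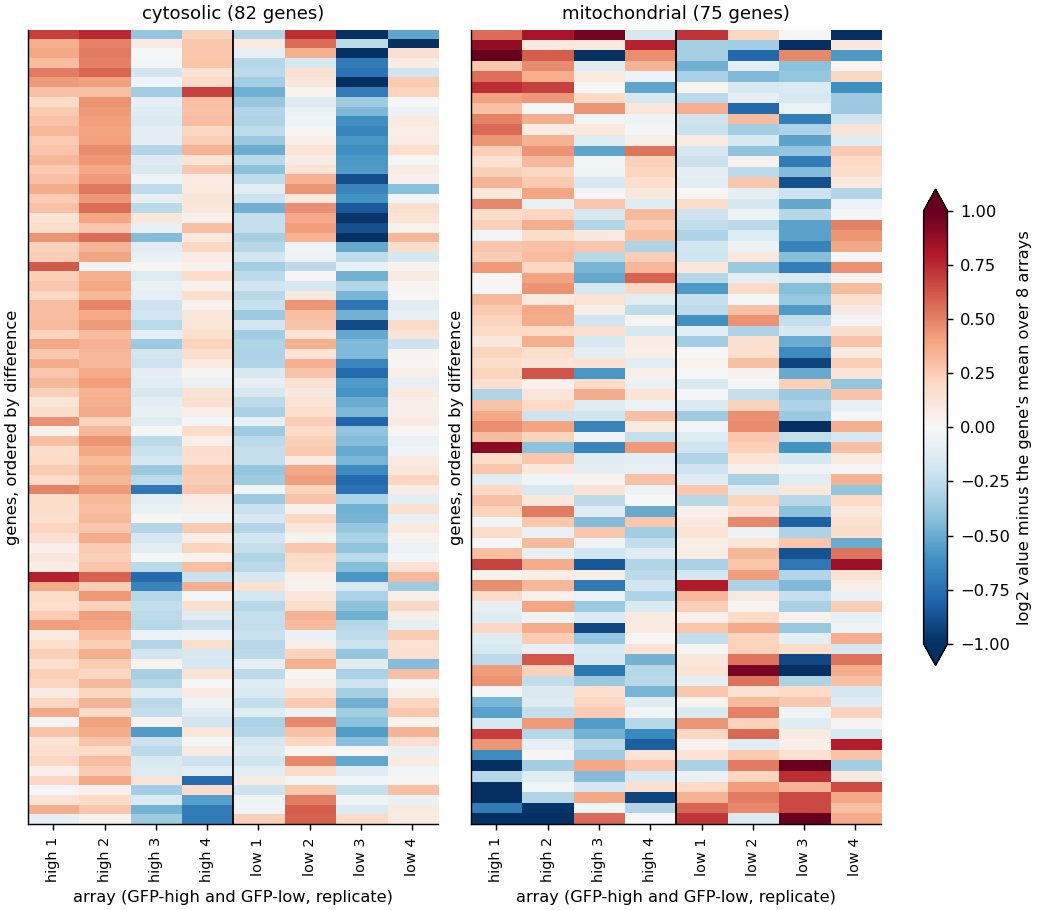
Each row is a tested gene (82 cytosolic, 75 mitochondrial, ordered by difference), each column an array, and the colour is the log2 value minus the gene's mean over 8 arrays. The cytosolic columns of GFP-high replicates 1 and 2 are nearly all red and those of GFP-low replicates 1 and 3 nearly all blue, and the mitochondrial columns are mixed.

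By construction, the scaled medians move against the array's scaling value, which is subtracted from every value on the array. As deposited, without scaling, the cytosolic median lay between 14.44 and 14.62 on all 8 arrays, a range of 0.18, while the log2 of the 75th percentile ran from 7.10 to 7.76, a range of 0.66. The 75th percentile was 0.19 lower in GFP-high (7.26 ± 0.18) than in GFP-low (7.46 ± 0.28; SD, n = 4 each). Without scaling the median cytosolic difference was 0.08, with 55 of 82 genes above 0, and the median mitochondrial difference was -0.04, with 30 of 75 above 0, so the direction of the mitochondrial median depended on the scaling. Quantile normalisation gave 0.02 for the cytosolic and -0.01 for the mitochondrial median, beside 0.09 for all genes, and normexp background correction gave 0.10, -0.01 and 0.10. The cytosolic median was thus above the median of all genes by 0.11 with the scaling used and below it by 0.07 after quantile normalisation.

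**Figure D3:**
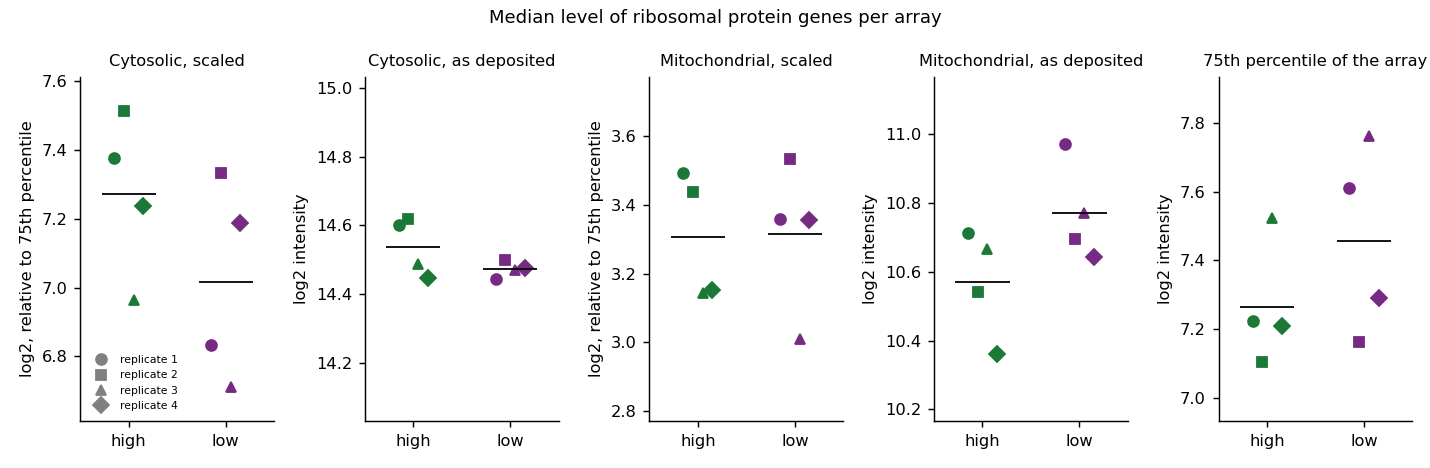
Median of the cytosolic and the mitochondrial genes on each array (symbols, replicates; line, mean of 4 arrays), scaled and as deposited, and the 75th percentile of the array, each axis spanning 1 log2 unit. The cytosolic median as deposited stays within 0.18 on all arrays, and the scaled one spreads over 0.80.

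A comparison within each array does not depend on a scaling that shifts the array as a whole. The cytosolic median exceeded the mitochondrial median by 3.89, 4.08, 3.82 and 4.09 in GFP-high replicates 1 to 4 and by 3.47, 3.80, 3.70 and 3.83 in GFP-low. These offsets compare different probes, so only their change between arrays is of use. The arrays with the highest 75th percentiles were GFP-low replicates 3 and 1 and GFP-high replicate 3 (217, 196 and 184). Their offsets were 3.70, 3.47 and 3.82, and those of the other arrays ran from 3.80 to 4.09. Whether the offset depends on array brightness was not tested. The groups overlapped at 1 pair, GFP-high replicate 3 and GFP-low replicate 4, and the means were 3.97 ± 0.13 and 3.70 ± 0.16 (SD, n = 4 each), apart by 0.26. Taken from the medians of gene differences, the cytosolic ribosome lay above the mitochondrial one by 0.12 with or without scaling, by 0.12 within slide 1 and 0.17 within slide 2, by 0.03 after quantile normalisation and by 0.05 after cyclic loess. Leaving out 1 array moved this gap between 0.07 (without GFP-low replicate 3) and 0.19 (without GFP-high replicate 3), with 0.08 without GFP-high replicate 2 and 0.19 without GFP-low replicate 2. The summaries of the mitochondrial genes disagreed in sign: the median over gene differences was 0.15, and the difference between the mean array medians was -0.01.

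**Figure D4:**
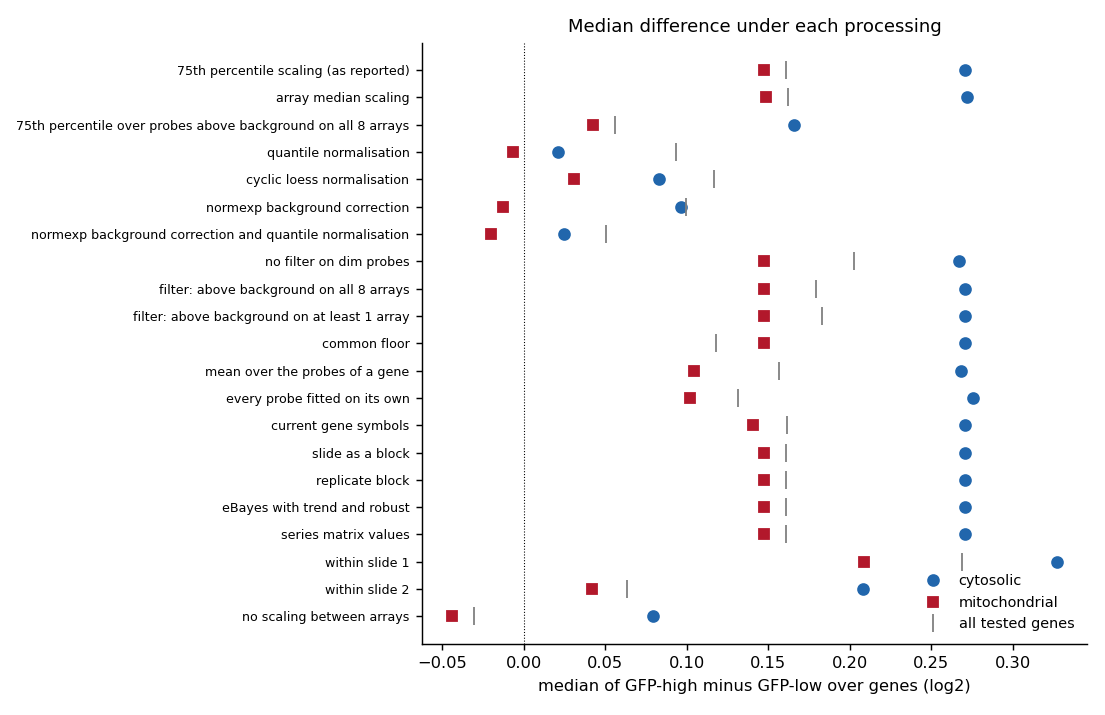
Median difference over cytosolic (circles), mitochondrial (squares) and all tested genes (bars) under each way of processing the arrays. Cytosolic medians stay above 0 and shrink to 0.02 after quantile normalisation, and mitochondrial medians cross 0 there, after normexp and without scaling.

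The stalk of the large subunit, which recruits elongation factors, is made of Rplp0, Rplp1 and Rplp2, and the 3 genes differed by 0.41 ± 0.26, 0.13 ± 0.26 and 0.39 ± 0.25 (standard error of the fit, as for every difference below). Rpl5 and Rpl11, which carry 5S ribosomal RNA and can bind Mdm2, read 0.14 ± 0.26 and 0.10 ± 0.25. A second, dimmer probe of Rpl11 gave 1.84, and the mean over both probes 0.97 (limma adjusted p = 0.231), so the size of its difference depended on the probe. Rpl10, which completes the large subunit late in its assembly, read 0.42 ± 0.26. Rpl38, needed in mice for translation of a subset of Hox messages, read 0.19 ± 0.26, and Rpl13a 0.25 ± 0.32. Each of these differences, on the brightest probe, was within 2 standard errors of 0.

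Small subunit genes behaved alike. Rps6, the substrate of the S6 kinases, read 7.25 ± 0.27 against 7.12 ± 0.12 (GFP-high first; SD, n = 4 each), a difference of 0.13 ± 0.23. Rps19 and Rps14, known from inherited and acquired human anaemias, differed by 0.31 ± 0.22 and 0.35 ± 0.35. Rps3 and Rps20 differed by 0.37 ± 0.31 and 0.31 ± 0.23, and Rpsa, also known as a laminin receptor, by 0.25 ± 0.36. The 14 cytosolic genes listed for their known roles, these and the large subunit genes above, were all above 0 with the scaling used, with a median of 0.28, but 9 of 14 were above 0 without scaling or after cyclic loess, 10 after normexp, 8 after quantile normalisation and 7 after both normexp and quantile normalisation.

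The 3 largest positive cytosolic differences each shrank without 1 GFP-low array, that of Rps15 less than those of Rps25 and Rps27a. Rps15 read 6.89, 6.96, 5.82 and 6.43 in GFP-high and 5.91, 6.95, 5.01 and 5.68 in GFP-low. The groups overlapped, and the difference was 0.64 ± 0.45 (limma adjusted p = 0.524), or 0.35 without GFP-low replicate 3. Without that array the median over all cytosolic genes also fell, from 0.27 to 0.13. Rps25 read 6.75, 6.88, 6.47 and 6.67 against 6.49, 6.94, 6.12 and 4.78. The last array stood far below the other 7, and the difference of 0.61 ± 0.44 became 0.18 without it. Rps27a, which is made as a fusion with ubiquitin, read 8.48, 8.61, 8.10 and 8.36 against 8.00, 8.44, 6.46 and 8.25, and its difference of 0.59 ± 0.44 became 0.15 without GFP-low replicate 3. Rpl37 (0.54 ± 0.25, adjusted p = 0.374), Rps9 (0.52 ± 0.29), Rps29 (0.43 ± 0.23), Rps28 (0.43 ± 0.23) and Rpl37a (0.43 ± 0.26) had smaller standard errors, and the groups overlapped in each.

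Of the 5 cytosolic genes below 0, 2 encode paralogues of another ribosomal protein. Rpl22l1, whose product can take the place of Rpl22, read 3.43, 3.55, 3.15 and 2.81 in GFP-high and 3.75, 4.10, 3.71 and 3.59 in GFP-low (probe at mm9 chr3:28706197-28706256). It was the 1 cytosolic gene of 82 (1.22%) whose groups did not overlap, against 8.95% of all genes tested, and its difference was -0.55 ± 0.26 (adjusted p = 0.365). A second, dimmer probe of Rpl22l1, above background on 4 arrays, gave 0.62, and the mean over both probes gave 0.03, so the direction depended on the probe. Rpl22 itself read 6.85, 7.05, 6.66 and 6.70 against 6.68, 6.99, 6.68 and 6.77, which overlap, and differed by 0.03 ± 0.22.

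Rps27l, the paralogue of Rps27 that p53 is known to induce, read 4.97, 5.03, 4.64 and 5.18 in GFP-high and 4.77, 5.26, 4.75 and 5.28 in GFP-low, a difference of -0.06 ± 0.25 with overlapping groups. Rps27 read 7.22, 7.52, 7.17 and 7.37 against 6.83, 7.39, 6.79 and 7.20 and differed by 0.27 ± 0.24. The other 3 below 0 were Rpl4 (-0.26 ± 0.33, and 0.04 within slide 1), Rpl31 (-0.18 ± 0.27, but -0.04 without GFP-low replicate 2 and -0.03 without GFP-high replicate 4) and Rpl27a (-0.02 ± 0.29). Further paralogue pairs lay on the same side of 0: Rpl7 and Rpl7l1 at 0.15 ± 0.28 and 0.32 ± 0.24, and Rpl36a and Rpl36al at 0.27 ± 0.25 and 0.16 ± 0.25. Rps4x and Rpl39, whose own paralogues gave no tested value, differed by 0.30 ± 0.25 and 0.34 ± 0.31.

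Of the 7 mitochondrial members that differed by more than 0.5, 4 had lower values in GFP-high and 3 had higher ones, none past the test. Mrpl50, a large subunit protein (probe at mm9 chr4:49525602-49525661), read 2.45, 2.17, 3.11 and 2.87 in GFP-high and 3.73, 3.63, 3.81 and 3.46 in GFP-low. All GFP-high arrays lay below all GFP-low arrays, and the difference was -1.01 ± 0.27, a 2.01-fold lower level (limma adjusted p = 0.200). It was -1.37 within slide 1 and -0.65 within slide 2. Its second probe, above background on all 8 arrays, gave -0.19.

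Mrps22, a small subunit protein (probe at mm9 chr9:98489251-98489310), read 2.49, 3.28, 3.97 and 2.66 in GFP-high and 3.93, 4.10, 4.24 and 3.97 in GFP-low. The groups overlapped in GFP-high replicate 3, and the difference was -0.96 ± 0.35 (limma adjusted p = 0.289). Mrps31 read 1.23, 1.89, 3.53 and 2.95 against 3.68, 2.82, 4.29 and 3.34. Its groups overlapped too, and the difference of -1.13 ± 0.54 was -1.69 within slide 1 and -0.57 within slide 2.

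The groups did not overlap in 4 of 75 mitochondrial genes (5.33%), all lower in GFP-high, against 3.08% of all genes tested in that direction and 8.95% in either. Besides Mrpl50 these were Mrpl32, Mrpl1 and Mrps5. Mrpl32, whose protein is matured by the m-AAA protease before it joins the ribosome, read 0.22, 1.77, 1.63 and 1.96 against 2.00, 2.22, 2.14 and 2.45. Its difference was -0.80 ± 0.40, and -0.41 without GFP-high replicate 1. Mrpl1 read 0.52, 0.69, 0.38 and 0.66 against 0.75, 1.03, 1.55 and 0.90 (-0.50 ± 0.25). Mrps5 read 1.02, 1.66, 1.30 and 1.78 against 1.79, 1.91, 1.81 and 1.93 (-0.42 ± 0.25), so GFP-high replicate 4 and GFP-low replicate 1 nearly touched.

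**Figure D5:**
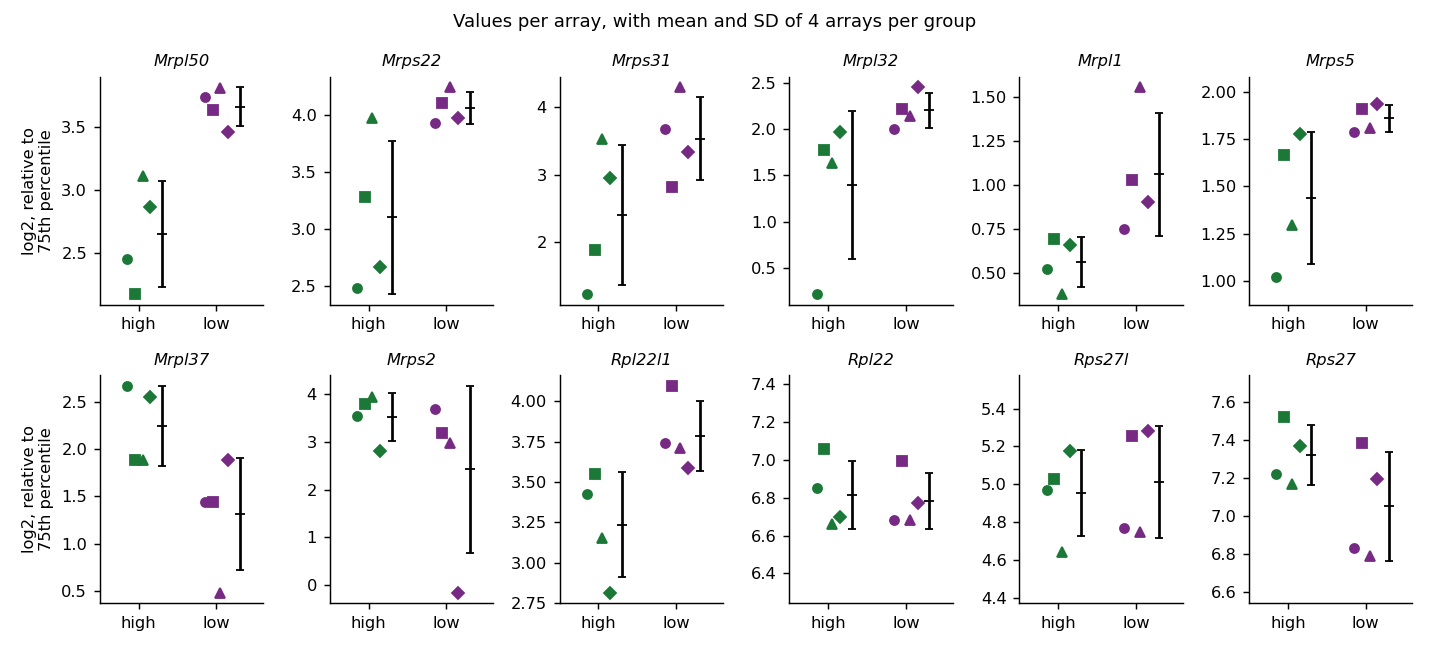
Values on each of the 8 arrays for 8 mitochondrial and 4 cytosolic members (green, GFP-high; purple, GFP-low; circle, square, triangle and diamond, replicates 1 to 4; black, mean and SD of 4 arrays), on the log2 scale relative to the array's 75th percentile, each panel with its own axis. Mrpl50, Mrpl32, Mrpl1, Mrps5 and Rpl22l1 have every GFP-high array below every GFP-low array, and the low mean of Mrps2 in GFP-low comes with 1 array at -0.15.

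Among positive mitochondrial differences, Mrpl37 of the large subunit read 2.67, 1.88, 1.88 and 2.55 in GFP-high and 1.44, 1.44, 0.49 and 1.88 in GFP-low. The groups met near 1.88, and the difference was 0.93 ± 0.36 (limma adjusted p = 0.312), with 0.83 and 1.03 within slides 1 and 2. Mrps2 read 3.53, 3.80, 3.93 and 2.81 against 3.69, 3.17, 2.98 and -0.15. Without that last array, GFP-low replicate 4, its difference of 1.09 ± 0.79 was 0.23. Mrps25 differed by 0.60 ± 0.53 and took the opposite sign within slide 2 (-0.31). Mrpl23 (0.48 ± 0.24), Mrpl36 (0.48 ± 0.26), Mrps12 (0.44 ± 0.23), a protein of the decoding centre, and Mrpl27 (0.37 ± 0.24) followed.

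The mitochondrial genes listed for their known roles spread on both sides of 0. Of 12, 7 were above 0 and the median was 0.09 with the scaling used, and 4 were above 0 with a median of -0.11 without scaling. Mrpl3 and Mrpl44, with Mrps22 the genes known from human cardiomyopathy, differed by 0.23 ± 0.23 and 0.28 ± 0.26, while Mrps22 lay at -0.96. Mrpl12, which can bind the mitochondrial RNA polymerase, read -0.12 ± 0.25. Mrpl11 (0.11 ± 0.23), Mrpl10 (0.25 ± 0.33), Mrpl41 (0.17 ± 0.31), Mrps16 (-0.05 ± 0.25), Mrps27 (-0.15 ± 0.40) and Mrps35 (0.06 ± 0.29) lay within 1 standard error of 0. The 3 homologues of bacterial S18, Mrps18a, Mrps18b and Mrps18c, differed by 0.36 ± 0.25, 0.31 ± 0.23 and 0.10 ± 0.21.

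Where a gene had 2 or more tested probes, they did not always share a sign. Probes of opposite sign were found in 6 of 42 cytosolic genes (14.3%), 11 of 28 mitochondrial genes (39.3%) and 31.4% of 4228 genes overall. With the mean over probes in place of the brightest probe, the difference changed sign in Rps20 (-0.05), Mrps25 (-0.30) and Rpl22l1 (0.03), and it was -0.47 in Rpl27a, 0.35 in Rpl22, 0.57 in Mrps18b and -0.60 in Mrpl50. Median differences with and without the promoter features lay close together. Cytosolic genes with the start tract shown above for Rps6 and Rps27 had a median of 0.28 (13 genes, all above 0), and those without it had 0.26 (48 genes, 43 above 0). With the start allowed to lie up to 5 bases away, 29 of 63 cytosolic promoters held a tract. The 48 genes thus include some with a tract near the annotated start. Mitochondrial genes with CCGGAA had 0.13 (38 genes) and those without it 0.15 (28 genes).

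Of the genes listed for making, running or controlling ribosomes, 0 passed the adjusted threshold. The SD of their differences over genes was 0.85 for assembly genes, 0.95 for cytosolic translation factors, 0.95 for control genes and 0.67 for mitochondrial translation genes. These lists were chosen with earlier results of these data known. The shares given for them here and below are thus descriptions and not tests of the lists. Of 10 ribosomal proteins with other names (Rps27a is also a member), 8 were above 0. Fau, which encodes S30 fused to a ubiquitin-like protein, read 0.51 ± 0.22, and Ptcd3, a small subunit protein of mitochondria, read -1.18 ± 0.49, or -0.31 as the mean over its probes. Of 64 ribosome assembly genes 62 were tested, with a median of -0.16; 1 was higher and 11 were lower at an unadjusted limma p under 0.05, together 19.4% against 14.3% of all genes tested (7.95% higher and 6.39% lower). Nvl, an ATPase of large subunit assembly, read -0.59, -1.503, -0.73 and -0.35 in GFP-high and 0.65, 0.89, 1.52 and 1.46 in GFP-low. These do not overlap (-1.92 ± 0.34, adjusted p = 0.105). Ncl, the nucleolar protein nucleolin, read -0.39, 0.10, 1.105 and 0.76 against 1.37, 3.49, 3.48 and 2.65, also without overlap (-2.35 ± 0.54, adjusted p = 0.161).

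Of 44 cytosolic translation factors 43 were tested, with a median of 0.05, and 1 was higher and 11 were lower at an unadjusted limma p under 0.05, together 27.9% against the same 14.3%. Eef1a2, the elongation factor form of muscle and neurons, differed by 1.59 ± 0.33 (adjusted p = 0.145) and Pabpc1, the cytoplasmic poly(A)-binding protein, by -1.33 ± 0.29 (adjusted p = 0.158). Of 28 genes that control ribosome production, such as Myc and mTOR pathway genes, 24 were tested, with a median of 0.00, and 2 were higher and 3 lower at that threshold (20.8% against 14.3%). The smallest p values among them were those of Yy1, a transcription factor (-1.19 ± 0.35, adjusted p = 0.234), and Larp4, an RNA-binding protein (-1.54 ± 0.51, adjusted p = 0.261). Of 51 mitochondrial translation genes 40 were tested, with a median of 0.11, and 3 were higher and 4 lower (17.5% against 14.3%). Rars2, the mitochondrial arginyl-tRNA synthetase, differed by -1.65 ± 0.32 (adjusted p = 0.118) and Gtpbp3, a tRNA-modifying enzyme, by 1.08 ± 0.36 (adjusted p = 0.260).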

How the data were processed

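RNA of 8 sorted samples was measured on 1-colour Agilent arrays. The deposited values are linear spot intensities, which per the file headers and the submitters' processing notes came from Agilent Feature Extraction 10.5.1.1, with background subtracted, trends removed and the dimmest spots (34.8% to 49.4%) replaced by surrogates before the authors deposited them. The authors' whole-series table holds the same intensity in all 45018 spots. No spot was saturated.

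From these, log2 of the processed signal minus the array's 75th percentile was computed, without control and outlier spots. The brightest probe stood for each gene, and genes above background on at least 4 of 8 arrays were tested with limma 3.58.1 in R 4.3.3, all 8 arrays in 1 fit, adjusted p under 0.05. Arrays in each group number 4, which limits the precision; p-values measure the spread between these samples. Members and lists were chosen with earlier results of these data known. Named genes were the 5 largest differences of each sign, the 3 smallest p not yet named, listed genes, and the 2 smallest p of each other list. The fit was tested on simulated data. Replicates 1 and 2 of each group shared slide 1, and replicates 3 and 4 shared slide 2. Same-numbered samples correlated at 0.12, 0.15, 0.30 and 0.06 across genes, and samples of different numbers at -0.20 to 0.08. The labels do not say that equal numbers mark pairs, so they were not taken as pairs. The replicate number as a block was an alternative. Probe positions are mm9, as in the files. Other scalings, background corrections, filters, probe rules, blocks and left-out arrays were tried.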

Additional observations from a re-analysis of the deposited data

Results flagged for a closer look

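In 148 groups of 4 arrays (71 named genes and 3 array summaries, the cytosolic median, the mitochondrial median and their gap, in each group), the gap of the highest or lowest array to its nearest neighbour was set against the group's range. It was above the critical value of 0.829 in 9 groups, where chance gives about 1 in 20.

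Among cytosolic members, Rpl31 had a high GFP-low replicate 2 (3.98 against 3.40 to 3.44, ratio 0.933), and Rpl7l1 a high GFP-high replicate 1 (2.75 against 2.11 to 2.18, ratio 0.891). In Rplp1 and Rpl36al the GFP-high replicate 3 was low (7.90 against 8.38 to 8.47, ratio 0.839, and 6.95 against 7.35 to 7.43, ratio 0.843).

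Among mitochondrial members, GFP-high replicate 4 was low in Mrps16 (3.20 against 3.49 to 3.52, ratio 0.900) and Mrpl41 (3.57 against 3.81 to 3.86, ratio 0.849), and GFP-high replicate 3 was low in Mrps18b (5.82 against 6.08 to 6.11, ratio 0.895). Outside the members, Fau was high in GFP-high replicate 2 (10.003 against 9.79 to 9.82, ratio 0.836) and Larp4 in GFP-low replicate 2 (0.98 against -0.21 to -0.04, ratio 0.853).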

How the results depend on the processing

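Under 28 alternatives 0 cytosolic and 0 mitochondrial members passed the adjusted threshold. The count over all genes, 18 with the processing used, was 0 with array median scaling, cyclic loess, a filter of at least 1 array, within slide 1, within slide 2 or without scaling, 3 with no filter on dim probes, 4 with the 75th percentile over probes above background on all 8 arrays, 7 with every probe fitted on its own, 9 after quantile normalisation, 11 with the slide as a block, 11 with a filter of all 8 arrays, 42 with a common floor and 0 to 7 without 1 array. With the replicate number as a block it was 0. Of 8 arrays 7 correlated best with the array of their own number, a hint from the data and not from the design. The alternative without scaling was chosen after seeing the data. Without 1 array the cytosolic median ran from 0.13 (without GFP-low replicate 3) to 0.37 and the mitochondrial median from 0.06 to 0.23. Of 1987 values of 71 named genes under the alternatives, 100 changed sign and 0 were called. The blocks and filters leave a fitted difference nearly as it was, and 0 signs changed there, so the total understates the movement elsewhere. Of 71 genes, 15 changed sign after quantile normalisation, with or without normexp, and 13 without scaling. After cyclic loess, after normexp alone and within slide 2 it was 10 each. Why these values moved was not tested.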
